A study of Mus musculus with 9 samples.

Results

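RNA-Seq read counts of 10 genes of the epidermal growth factor system were examined in AdvSca1-SM cells, smooth muscle–derived, Sca1-expressing progenitor cells of the arterial adventitia. The genes were the 4 ERBB receptors Egfr, Erbb2, Erbb3 and Erbb4, the neuregulin Nrg1, and the EGFR ligands Hbegf, Areg, Ereg, Tgfa and Btc. They were taken by name from a list and matched to the 55416 Ensembl genes of the count table, in which all 10 were found. The members were chosen by family, with earlier results of these libraries in view, and which measured values they were selected on is not recorded. The calls given for these genes therefore describe the 9 libraries and are not independent evidence.

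The 9 libraries fell into 3 groups of 3, Stem, TGF-β and Both, all collected after 72 h in 0.1% DMSO. Stem cells received neither TGF-β nor PFI-3, TGF-β cells received 5 ng/mL TGF-β, and Both cells received 5 ng/mL TGF-β with 50 μM PFI-3, an inhibitor directed at the bromodomain of the chromatin remodeler Brg1. The cells of all groups had been sorted as YFP+ Sca1+ cells from pooled vessels of SM22α-Cre-YFP mice, in which the SM22α promoter drives Cre recombinase, and had then been subcultured, so the label marks cells with a smooth muscle history and not 1 clone. The maintenance medium held 10% serum with 5 ng/mL EGF and 1 ng/mL basic FGF, and cells to be treated were growth arrested for 24 h in 0.1% serum with the same growth factors. TGF-β and Both cells were then moved to DMEM with 0.1% serum, for which no added EGF or FGF is described, whereas the study describes Stem cells as grown in stem cell media and does not say whether they were growth arrested. When Stem is compared with either other group, added EGF, basic FGF, serum, the base medium and TGF-β therefore cannot be told apart. EGF is itself a ligand of EGFR, and the maintenance medium was based on αMEM. TGF-β and Both shared their medium and differed in PFI-3.

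ERBB receptors are tyrosine kinases of the cell surface that act in pairs. EGFR binds EGF, TGF-α and amphiregulin, ErbB3 and ErbB4 bind neuregulins, and HB-EGF, betacellulin and epiregulin bind both EGFR and ErbB4; ErbB2 has no known ligand of its own and ErbB3 has little kinase activity, so both work as partners. The ligands are made as membrane proteins that ADAM proteases cut free, and the receptors signal through RAS, ERK and PI3 kinase. In arteries, HB-EGF is known as a mitogen for smooth muscle cells.

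Total counts ranged from 35686291 to 47741128 per library. Stem replicate 2 stood apart from the other Stem libraries, and 1 Ensembl gene without a symbol took 4.70% of its counts against 0.364% and 0.477% in the other Stem libraries. The same gene took 1.39 to 2.32% in the TGF-β libraries and 0.978 to 1.77% in the Both libraries. Where leaving out Stem replicate 2 changed a call between Stem and another group, this is therefore stated. The 4 adventitial progenitor markers Ly6a, Cd34, Pdgfra and Scara5 summed to between 50470 and 58770 normalized counts in Stem and between 6361 and 6638 in TGF-β, and the 4 myofibroblast markers Acta2, Tagln, Postn and Col1a1 rose from between 88760 and 100600 to between 723100 and 773100. The extraction text of the labels speaks of hepatic tissue, but the hepatocyte markers Alb, Apoa1, Ttr and Serpina1a had 0 counts in Stem and no more than 2 in any library. The 5 epithelial markers, Epcam, Cdh1, Krt5, Krt14 and Cldn4, were at 0 in Stem and had at most 5 counts elsewhere, and the defining glial genes Sox10 and Foxd3 and macrophage genes Adgre1 and Itgam were at 0 in all 9 libraries. Other members of the marker lists did move. The 5 Schwann and glial markers summed to between 42.9 and 51.1 normalized counts in the Stem libraries, 377.3 and 438.1 in the TGF-β libraries and 241.3 and 253.7 in the Both libraries, chiefly through S100b, and the 5 leukocyte and macrophage markers to between 19.6 and 41.9, 71.0 and 102.5, and 152.2 and 156.2, chiefly through Csf1r. The 6 endothelial markers summed to between 115.2 and 249.2 in the Stem libraries, 59.4 and 93.7 in the TGF-β libraries and 52.7 and 70.1 in the Both libraries, and moved in both directions. Emcn had 168, 43 and 84 counts in Stem and 1 to 18 elsewhere, and Tek 36 to 50 in Stem and 14 to 23 elsewhere, whereas Kdr had 0, 0 and 2 counts in Stem and 21 to 34 elsewhere. The part of such cells in the results below was not tested. In bulk RNA, fewer cells of a type and less RNA per cell cannot be told apart.

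Reference promoter sequence was at hand for 6 of the 10 genes, as the 250 bases before the RefSeq gene start in the mouse build GRCm38.p6, which is not the GRCm39 build of the counts. Letter patterns were searched on both strands, and none of them contains another. These were the AP-1 site TGANTCA, the cyclic AMP response element TGACGTCA, the TATA box TATAAA and the GC box GGGCGG. The others were the SMAD element GTCTG and a separate SMAD palindrome, GTCTAGAC. Of 32851 promoter windows of the same length, 6.75%, 1.55%, 12.4%, 32.7%, 42.2% and 0.167% held these patterns, in the order given. The windows of Egfr (chr11:16751953-16752202 on the plus strand), Tgfa (chr6:86194972-86195221 on the plus strand) and Btc (chr5:91402995-91403244 on the minus strand) are shown because these 3 transcripts were lower in TGF-β, that of Erbb4 (chr1:69108060-69108309 on the minus strand) because it went the other way, and that of Areg (chr5:91139349-91139598 on the plus strand) because this gene was near 0 counts throughout. Sequences run 5′ to 3′ on the strand of the gene, and capitals mark the matches.
Egfr: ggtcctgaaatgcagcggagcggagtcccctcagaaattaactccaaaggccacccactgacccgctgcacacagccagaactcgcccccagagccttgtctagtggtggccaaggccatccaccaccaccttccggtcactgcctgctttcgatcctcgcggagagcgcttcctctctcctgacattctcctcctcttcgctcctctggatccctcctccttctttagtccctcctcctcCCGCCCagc
Tgfa: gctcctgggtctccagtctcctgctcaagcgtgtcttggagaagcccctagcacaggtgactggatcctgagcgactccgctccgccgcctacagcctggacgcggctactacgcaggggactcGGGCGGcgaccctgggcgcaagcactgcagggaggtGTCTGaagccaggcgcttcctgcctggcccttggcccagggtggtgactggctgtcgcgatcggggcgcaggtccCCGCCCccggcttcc
Btc: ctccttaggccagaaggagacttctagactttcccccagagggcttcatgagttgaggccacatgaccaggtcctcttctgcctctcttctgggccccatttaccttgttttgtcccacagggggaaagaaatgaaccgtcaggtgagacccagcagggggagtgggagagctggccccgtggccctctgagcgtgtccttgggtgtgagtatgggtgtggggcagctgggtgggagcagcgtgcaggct
Erbb4: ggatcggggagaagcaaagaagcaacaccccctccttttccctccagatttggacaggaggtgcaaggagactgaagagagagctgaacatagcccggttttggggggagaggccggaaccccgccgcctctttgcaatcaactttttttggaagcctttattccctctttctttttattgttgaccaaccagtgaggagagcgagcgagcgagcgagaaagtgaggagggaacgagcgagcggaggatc
Areg: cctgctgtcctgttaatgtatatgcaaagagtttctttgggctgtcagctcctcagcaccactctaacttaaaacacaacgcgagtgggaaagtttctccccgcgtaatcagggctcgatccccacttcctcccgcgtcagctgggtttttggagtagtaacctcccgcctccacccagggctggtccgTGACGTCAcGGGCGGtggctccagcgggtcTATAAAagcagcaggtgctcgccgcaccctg

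The Areg window held a cyclic AMP response element that begins 61 bases before the start, a GC box at 52 and a TATA box at 31. The Egfr window held 1 GC box, the Tgfa window 2 GC boxes and 1 GTCTG, and the Btc, Erbb4 and Erbb2 windows held none of the patterns. No AP-1 site and no SMAD palindrome was found in any of the 6 windows. No pattern was shared by the 3 lower genes. A match is a run of letters and not a measured binding site.

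Between Stem and TGF-β, Egfr, Tgfa, Btc and Ereg fell, and Hbegf and Erbb4 rose, while Nrg1 did not pass the test. These are 3 ligands and a receptor that fell and 1 of each that rose. A gene was called when edgeR's quasi-likelihood test gave a Benjamini-Hochberg adjusted p below 0.05 over the 14879 genes tested together with more than a 2-fold change. Of the 10 genes, 9 passed the filter on low counts, all but Areg, and 6 of these 9 were called, 2 higher and 4 lower. Among all genes tested, 25.1% were called, 10.6% higher and 14.5% lower in TGF-β. With no fold minimum 7 of the 9 had an adjusted p below 0.05, against 75% of all genes tested, and the Stem and TGF-β libraries did not overlap for 7 of the 9, against 76.8% of all genes tested. The median log2 fold change of the 9 was -0.90, against -0.0027 over all genes tested.

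**Figure D1:**
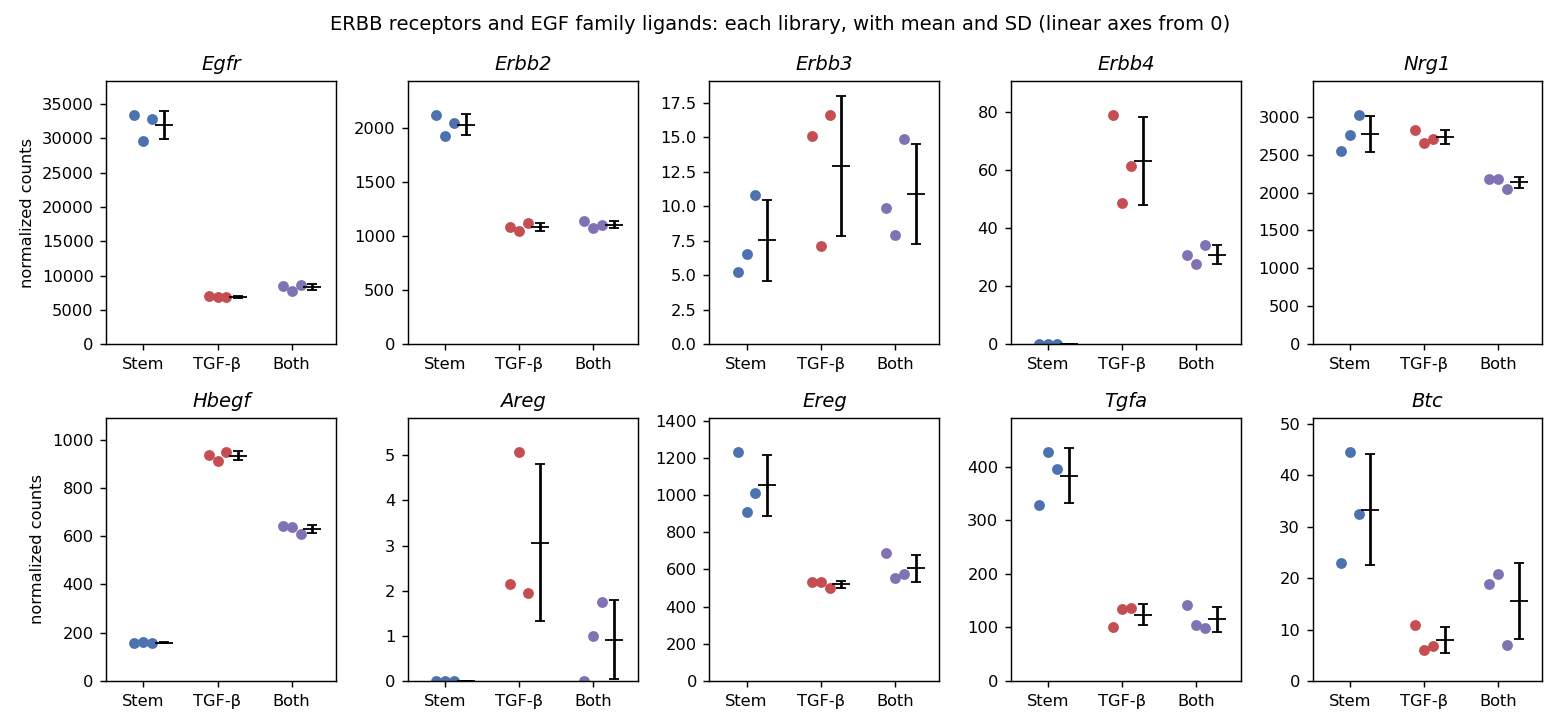
Normalized counts (linear axes that begin at 0) of the 10 genes in each of the 9 libraries, as points by group, with the mean and SD of the 3 libraries in black. Egfr lies between 29530 and 33330 in Stem and between 6838 and 8630 elsewhere, and Hbegf between 155.8 and 160.8 in Stem and between 609.1 and 948.0 elsewhere.

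Egfr, the receptor of most ligands listed here, had the highest level per kilobase of the 10 genes in all 3 groups. It had 33330, 29530 and 32800 normalized counts in the Stem libraries, 7052, 6838 and 6858 in the TGF-β libraries and 8451, 7815 and 8630 in the Both libraries, where a normalized count is a read count scaled to the mean library size. No library of one group overlapped another. Egfr fell 4.61-fold from Stem to TGF-β, a log2 fold change of -2.20 (SE 0.0545, adjusted p = 5.67e-12). With PFI-3 it was 1.20-fold higher than in TGF-β alone, a log2 difference of 0.26 (SE 0.0526, adjusted p = 0.00916) that stayed under the 2-fold minimum.

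Erbb2, the partner receptor, had 2121, 1930 and 2048 normalized counts in the Stem libraries, 1084, 1050 and 1126 in the TGF-β libraries and 1145, 1074 and 1109 in the Both libraries. All Stem libraries lay above all others, and the TGF-β and Both libraries overlapped. Its log2 fold change from Stem to TGF-β was -0.90 (SE 0.0499, adjusted p = 7.02e-09), under the 2-fold minimum, although with total counts in place of TMM scaling it reached -1.02 and was called. Between TGF-β and Both it differed by 0.03 on the log2 scale (95% confidence interval -0.09 to 0.15, adjusted p = 0.782). The exons of Erbb2 overlap those of Mien1 on the other strand. The paper describes a stranded library kit, but the sources used here do not say whether the counting kept strands apart.

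Erbb3, a neuregulin receptor, was barely detected, with 5 to 10 counts in the Stem libraries, 7 to 17 in the TGF-β libraries and 8 to 17 in the Both libraries. The 3 groups overlapped. The log2 difference from Stem to TGF-β was 0.78 with a 95% confidence interval of -0.28 to 1.83 (adjusted p = 0.122), so a change of more than 2-fold could not be told at this depth. Without TGF-β replicate 2, the lowest of its group, the difference was 1.08 and was called (adjusted p = 0.0363).

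Erbb4, the other neuregulin receptor, had 0, 0 and 0 counts in the Stem libraries, 73, 48 and 63 in the TGF-β libraries and 34, 28 and 39 in the Both libraries. The groups did not overlap, and Both lay between Stem and TGF-β. Against the limit that 3 counts per library allow, Erbb4 exceeded its Stem level at least 19.3-fold with TGF-β, and at least 9.46-fold with TGF-β and PFI-3. From TGF-β to Both it fell from 63.0 ± 15.1 to 30.8 ± 3.30 normalized counts (mean ± SD of 3 libraries each), which edgeR put at -1.02 on the log2 scale (SE 0.222, adjusted p = 0.0195). This call sat at the edge of both thresholds. It was lost with a prior count of 2 (-0.98) and on leaving out TGF-β replicate 1 (-0.83, adjusted p = 0.0750), TGF-β replicate 3 (-1.04, adjusted p = 0.0674), Both replicate 1 (-1.01, adjusted p = 0.0745) or Both replicate 2 (-0.95, adjusted p = 0.0577).

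**Figure D2:**
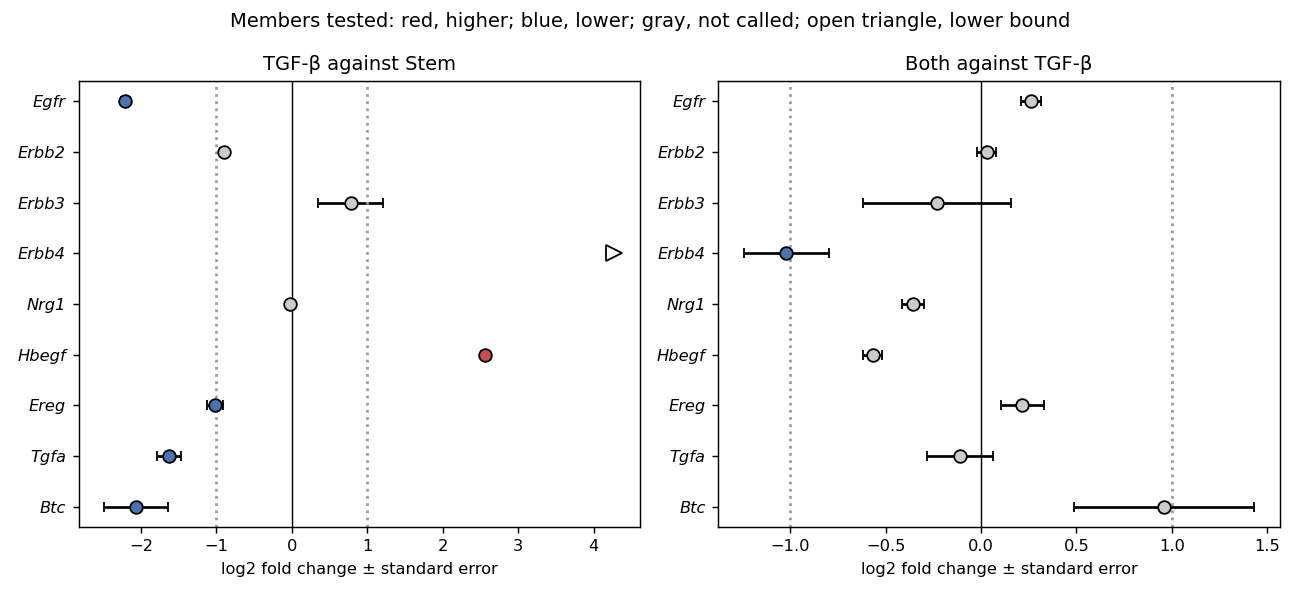
Log2 fold change with its standard error (horizontal axis) for the 9 genes tested, from Stem to TGF-β on the left and from TGF-β to Both on the right, with dotted lines at the 2-fold minimum. Egfr, Tgfa, Btc and Ereg are lower and Hbegf is higher on the left, where the triangle is the lower bound for Erbb4 (4.27), and only Erbb4 (-1.02) is called on the right.

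Among the ligands, Hbegf, the heparin-binding EGF-like growth factor, rose in TGF-β. It had 157.0, 160.8 and 155.8 normalized counts in the Stem libraries, 936.7, 912.7 and 948.0 in the TGF-β libraries and 641.1, 636.6 and 609.1 in the Both libraries. Replicates lay close together, with an SD of 2.62 in the Stem libraries, 18.0 in the TGF-β libraries and 17.3 in the Both libraries, and no groups overlapped. Hbegf was 5.91-fold higher in TGF-β than in Stem, a log2 fold change of 2.56 (SE 0.0596, adjusted p = 3.54e-12). With PFI-3 it was 1.48-fold lower than with TGF-β alone (log2 difference -0.57, SE 0.0502, adjusted p = 5.67e-05), under the 2-fold minimum, and remained 3.98-fold above Stem.

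Nrg1, the neuregulin and so a ligand for ErbB3 and ErbB4, had 2545, 2764 and 3017 normalized counts in the Stem libraries, 2828, 2653 and 2708 in the TGF-β libraries and 2181, 2174 and 2045 in the Both libraries. Stem and TGF-β overlapped, and every Both library lay below every other library. The log2 difference from Stem to TGF-β was -0.02 with a 95% confidence interval of -0.16 to 0.12 (adjusted p = 0.720). From TGF-β to Both it was -0.36 (SE 0.0579, adjusted p = 0.00276), under the 2-fold minimum. Counts per gene do not separate the many isoforms of Nrg1, of which 12 coding transcripts are annotated in the GENCODE M21 release used for lengths.

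Tgfa, transforming growth factor α, had 327.7, 427.0 and 394.9 normalized counts in the Stem libraries, 100.4, 134.9 and 135.7 in the TGF-β libraries and 141.4, 104.6 and 98.3 in the Both libraries. All Stem libraries lay above all others, whereas TGF-β and Both overlapped. It fell 3.10-fold from Stem to TGF-β (log2 fold change -1.63, SE 0.155, adjusted p = 1.16e-06). Between TGF-β and Both the log2 difference was -0.11 with a 95% confidence interval of -0.53 to 0.31 (adjusted p = 0.759).

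Ereg, epiregulin, had 1232, 910.6 and 1014 normalized counts in the Stem libraries, 529.8, 534.5 and 498.9 in the TGF-β libraries and 686.1, 556.7 and 573.1 in the Both libraries. The groups did not overlap, with Both between the other groups. Its log2 fold change from Stem to TGF-β was -1.01 (SE 0.108, adjusted p = 3.21e-06), a 2.02-fold fall that was under the 2-fold minimum without Stem replicate 1 (-0.88) or without TGF-β replicate 3 (-0.98). From TGF-β to Both the difference was 0.22 (95% confidence interval -0.05 to 0.49, adjusted p = 0.261).

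Btc, betacellulin, had 22, 41 and 30 counts in the Stem libraries, 10, 6 and 7 in the TGF-β libraries and 21, 21 and 8 in the Both libraries. All TGF-β libraries lay below all Stem libraries, and 1 Both library lay within the TGF-β range. Btc fell 4.22-fold from Stem to TGF-β (log2 fold change -2.07, SE 0.420, adjusted p = 7.34e-04). The difference from TGF-β to Both was 0.96 on the log2 scale with a 95% confidence interval of -0.19 to 2.11 (adjusted p = 0.243), an interval that holds both no change and a change of more than 2-fold.

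Areg, amphiregulin, had 0, 0 and 0 counts in the Stem libraries, 2, 5 and 2 in the TGF-β libraries and 0, 1 and 2 in the Both libraries, so no fold change is given. In the mouse genome Epgn, Ereg, Areg and Btc are consecutive protein-coding genes. Of these neighbors, Ereg and Btc fell, Areg stayed near 0 counts and Epgn, epigen, had 0 to 6 counts in a library. Exons of Nrg1, Tgfa and Ereg also overlap an annotated transcript on the other strand.

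Another 5 ligand genes of the family were looked at, and 2 of them passed the filter. Egf itself had 44, 17 and 18 counts in the Stem libraries, 9, 11 and 9 in the TGF-β libraries and 11, 13 and 21 in the Both libraries, a log2 fold change of -1.50 from Stem to TGF-β (SE 0.415, adjusted p = 0.00584) that was under the 2-fold minimum without Stem replicate 1 (-0.93). The neuregulin Nrg2 had 1, 2 and 2 counts in the Stem libraries, 19, 22 and 24 in the TGF-β libraries and 22, 22 and 19 in the Both libraries. It rose from Stem to TGF-β (adjusted p = 2.84e-06 by edgeR), and with 5 counts over the 3 Stem libraries against 65 the ratio scaled for library size was 12.4, with an exact 95% interval of 5.05 to 39.4, which covers counting error only. TGF-β and Both overlapped. Nrg3, Nrg4 and Epgn had at most 2, 4 and 6 counts in any library.

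Adding PFI-3 to TGF-β called 1 of the 9 genes, Erbb4, where 0.632% of all genes tested were called, with 0.161% called higher and 0.47% lower in Both. Without the fold minimum, 4 of the 9 had an adjusted p below 0.05 by edgeR, against 8.92% of all genes tested (3.54% higher and 5.38% lower). Egfr was higher and Hbegf, Nrg1 and Erbb4 were lower in Both, and in each case the 3 Both libraries lay apart from the 3 TGF-β libraries. Groups did not overlap for 5 of the 9 genes, Ereg included, against 32.7% of all genes tested. For Egfr, Erbb4 and Hbegf the Both libraries lay between those of Stem and TGF-β, whereas for Nrg1 they lay below both. Because the comparisons share the TGF-β libraries, these positions are given as values only.

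From Stem to Both, 5 of the 9 genes were called, where 22.8% of all genes tested were called, 9.55% higher and 13.2% lower. Hbegf (log2 fold change 1.99, SE 0.0606) and Erbb4 were higher. Egfr (-1.94, SE 0.0539), Tgfa (-1.74, SE 0.155) and Btc (-1.11, SE 0.361) were lower, and the call of Btc was lost without Stem replicate 2 (-0.84, adjusted p = 0.0668 by edgeR) or Both replicate 3 (-0.74, adjusted p = 0.0571). Ereg at -0.80, Erbb2 at -0.87 and Nrg1 at -0.38 had adjusted p values below 0.05 but stayed under the 2-fold minimum, which makes 8 of the 9 genes with no fold minimum, against 73.3% of all genes tested.

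Levels of different genes were compared as normalized counts per kilobase of the longest coding transcript. In Stem the order was Egfr at 3120, Nrg1 at 513, Erbb2 at 406, Ereg at 255, Tgfa at 84.6, Hbegf at 66.5, Btc at 11.6 and Erbb3 at 1.25, each apart from its neighbor in all 3 libraries, with Erbb4 and Areg at 0. In TGF-β it was Egfr at 678, Nrg1 at 504, Hbegf at 393, Erbb2 at 217, Ereg at 126, Tgfa at 27.3 and Erbb4 at 5.23, while Btc, Areg and Erbb3, between 2.15 and 2.75, overlapped their neighbors. In Both the first 6 genes kept the TGF-β order, at 813, 394, 265, 221, 147 and 25.4, and Btc, Erbb4, Erbb3 and Areg overlapped in neighboring pairs. On this scale Hbegf came after Tgfa in Stem and directly after Nrg1 in TGF-β and Both. With coding length Hbegf still came after Tgfa in Stem (253 against 803.3). In Both, Hbegf and Nrg1 were then nearly level (1008 against 1016) and their libraries overlapped. In TGF-β, Hbegf then stood above Nrg1 (1494 against 1300).

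The receptors summed to 3530 ± 220.0 normalized counts per kilobase in the Stem libraries, 902 ± 16.0 in the TGF-β libraries and 1040 ± 48.1 in the Both libraries (mean ± SD of 3). Egfr made up 88.5% ± 0.227, 75.1% ± 0.754 and 78.3% ± 0.540 of these sums and Erbb2 11.5%, 24.0% and 21.3%, so that Erbb2 took a larger share of a smaller sum in TGF-β. The ligands summed to 930 ± 32.0, 1060 ± 16.5 and 837 ± 39.0. Hbegf made up 7.15% ± 0.340 of the ligand sum in the Stem libraries, 37.2% ± 0.588 in the TGF-β libraries and 31.7% ± 0.755 in the Both libraries, Nrg1 55.1%, 47.8% and 47.1%, and Ereg 27.4%, 12.0% and 17.5%. The ratio of Hbegf to Egfr per kilobase was 0.0214 ± 0.00178 in the Stem libraries, 0.580 ± 0.0127 in the TGF-β libraries and 0.327 ± 0.0234 in the Both libraries, with no overlap between groups. Length matters for these shares, because Ereg, Tgfa and Hbegf have long untranslated parts. Per kilobase of coding sequence Nrg1 made up 28.7% of the ligand sum in the Stem libraries, 31.4% in the TGF-β libraries and 28.7% in the Both libraries, and it led the ligands in no group. In normalized counts per coding kilobase, Ereg stood above Nrg1 in Stem (2165 against 1322), Hbegf stood above Nrg1 and Ereg in TGF-β (1494 against 1300 and 1072), and Ereg stood above Nrg1 and Hbegf in Both (1245 against 1016 and 1008). Egfr stood first of the 10 genes in all 3 groups on both scales.

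**Figure D3:**
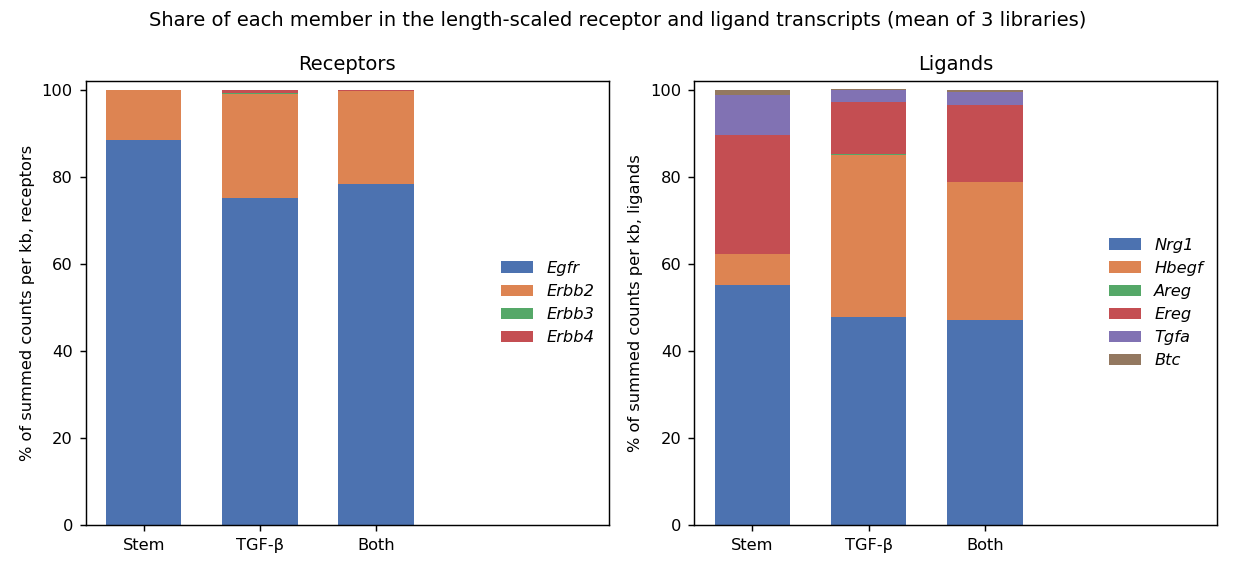
Share of each gene (vertical axis, percent) in the summed normalized counts per kilobase of the 4 receptors on the left and the 6 ligands on the right, as stacked bars of the mean of 3 libraries per group. Egfr takes 88.5% of the receptor sum in Stem and 75.1% in TGF-β, and Hbegf 7.15% and 37.2% of the ligand sum.

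The other genes of the pathway were followed as 4 lists. Of 10 genes for the shedding and trafficking of ligands, all tested, 2 rose and 0 fell from Stem to TGF-β, where 25.1% of all genes tested were called, 10.6% higher and 14.5% lower. Rhbdf2, an inactive rhomboid protein that helps bring the protease ADAM17 to the cell surface, rose from 125.3 ± 29.4 to 410.3 ± 20.1 normalized counts (log2 fold change 1.71, adjusted p = 9.43e-08). The rhomboid protease gene Rhbdl2 had 0 or 1 counts in Stem and 11 to 16 in TGF-β. Adam17, the main sheddase of several EGFR ligands, went from 4140 ± 411.1 to 3618 ± 116.3, a log2 difference of -0.19. The median of the list was 0.523, against -0.0027 over all genes tested.

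Of 33 genes for adaptors and kinase cascades, all tested, 3 rose and 0 fell, a smaller share than the 25.1% of all genes tested, with a median of -0.041. The adaptor Gab2 rose from 1125 ± 20.7 to 4090 ± 84.7 normalized counts (log2 fold change 1.86, SE 0.0391). Pik3cb, a catalytic subunit of PI3 kinase, rose by 1.48 and Hras, a RAS GTPase, by 1.26 on the log2 scale. The other 30 genes of the list were not called. With no fold minimum, 27 of the 33 had an adjusted p below 0.05 by edgeR, 11 higher and 16 lower, against 75% of all genes tested.

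Of 25 negative regulators, 23 were tested, 1 rose and 6 fell, beside 10.6% higher and 14.5% lower among all genes tested, with a median of -0.482. Spry2, a Sprouty inhibitor of receptor tyrosine kinase signaling that is itself induced by ERK activity, fell from 7429 ± 330.1 to 847.3 ± 26.6 normalized counts (log2 fold change -3.13, SE 0.0486, adjusted p = 2.03e-13). Its relative Spry1 fell from 5449 ± 269.0 to 1424 ± 28.5, and Dusp6, a phosphatase of ERK, from 1539 ± 244.8 to 379.8 ± 15.7. Lrig1, which promotes the breakdown of ERBB receptors, rose from 3681 ± 131.6 to 7430 ± 8.34 (log2 fold change 1.01, SE 0.0412), a call at the threshold that was lost with total counts as the scaling (0.89), with a filter at a mean of 10 counts (1.00) and without Stem replicate 3 (0.99). Errfi1, an inhibitor of the EGFR kinase, went from 3088 ± 125.9 to 1909 ± 33.4, a log2 difference of -0.69 under the fold minimum.

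Of 17 transcripts known to be induced by ERK, all tested, 3 rose and 3 fell, again beside 10.6% higher and 14.5% lower among all genes tested, with a median of -0.014. Emp1, an epithelial membrane protein, rose from 15180 ± 2236 to 51310 ± 1310 normalized counts (log2 fold change 1.76, SE 0.0846), Plaur, the urokinase receptor, from 240.4 ± 12.0 to 758.4 ± 47.7, and Egr2, an early response factor, from 109.5 ± 12.5 to 219.7 ± 24.8. The last call was at the threshold (log2 fold change 1.00, SE 0.117) and was lost, among other alternatives, without Stem replicate 2 (0.98). Etv5, an ETS factor, fell from 2407 ± 175.4 to 702.6 ± 14.4 and Phlda1 from 1075 ± 115.6 to 453.5 ± 17.8. Etv4, a relative of Etv5, fell as well, from 92.5 ± 15.4 to 44.1 ± 14.7. With all 9 libraries, the called genes of this list thus lay in both directions, 3 each way. That split depends on how the lists were drawn. Spry2, described above as induced by ERK activity, was counted with the negative regulators, of which 6 fell and 1 rose. Whether ERK activity itself differed was not tested. Among the called falls of the 4 lists, Etv4 was nearest the 2-fold minimum (log2 fold change -1.06). Its highest Stem library was replicate 2, at 108.7 normalized counts against 91.1 and 77.9. Without that library, 8 genes of the 4 lists were called higher and 8 lower, against 9 and 9 with it. Egr2 was the rise that was lost. Which fall was lost was not identified, because Etv4 and other genes not named by rule were not followed singly with libraries left out.

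**Figure D4:**
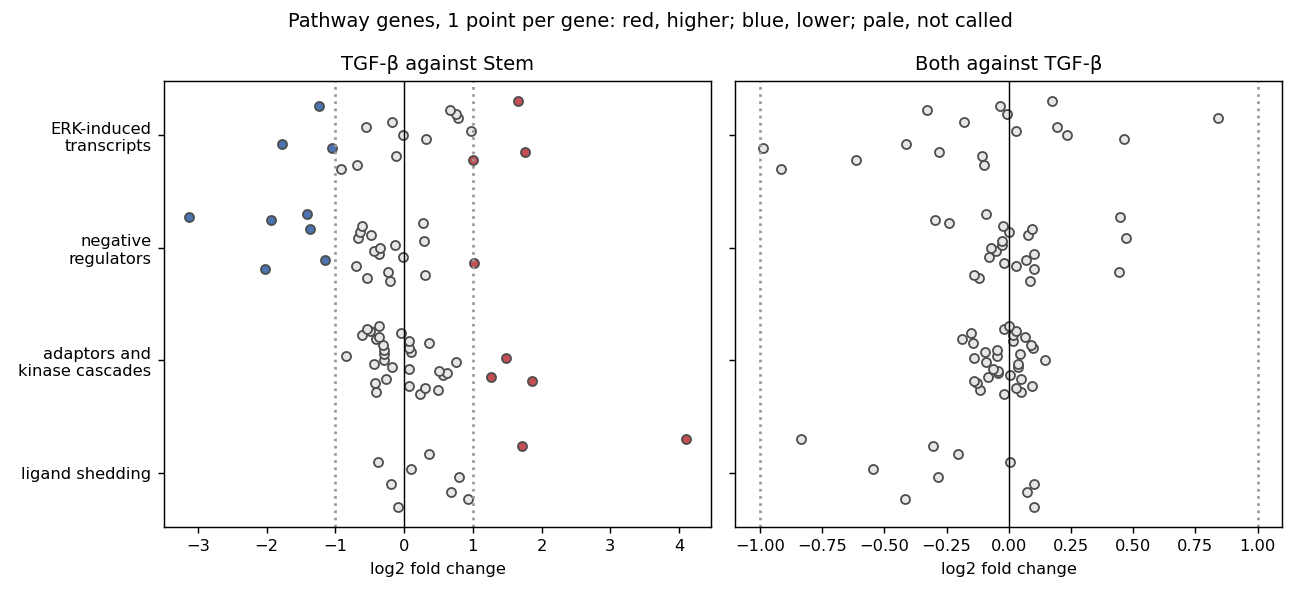
Log2 fold change (horizontal axis) of each tested gene of the 4 pathway lists (rows), from Stem to TGF-β on the left and from TGF-β to Both on the right, with dotted lines at the 2-fold minimum. On the left 6 of 23 negative regulators are called lower and 1 higher, and on the right 0 genes are called.

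Between TGF-β and Both, 0 genes of the 4 lists were called by edgeR and 0 by DESeq2, and 29 of the 83 tested (34.9%) had an unadjusted p below 0.05 by edgeR, against 24.1% of all genes tested. With an adjusted p below 0.05 and no fold minimum there were 3 genes of ligand shedding, 3 of the cascades, 3 negative regulators and 7 ERK-induced transcripts, of 10, 33, 23 and 17 tested, against 8.92% of all genes tested. The proteases Adam12 (log2 difference -0.42) and Adam19 (-0.28) and the rhomboid protein gene Rhbdf1 (-0.20) were lower in Both. Of the cascades, Shc1 (-0.19) and Gab2 (-0.14) were lower and Pik3ca (0.15) was higher, all small differences. Among negative regulators Spry2 (0.45) and Socs3 (0.47) were higher and Spry1 (-0.30) was lower. Ccnd1, cyclin D1, at -0.92 (SE 0.0718), Etv4 at -0.99 (SE 0.269), Egr2 at -0.61, Etv5 at -0.41 and Myc at -0.33 were lower, whereas Ier3 at 0.84 (SE 0.0788) and Fos at 0.46 were higher. Without TGF-β replicate 1, Etv4 passed the fold minimum as well (-1.20, adjusted p = 0.0178 by edgeR).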

How the data were processed

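RNA-Seq libraries of AdvSca1-SM cells, 3 per group, were compared. For each Ensembl gene, the authors deposited the raw number of reads (counts), not normalized. The paper names Flexbar and STAR with GRCm39, whereas the submitters' processing notes name HISAT2 2.2.1, SAMtools 1.13 and HTSeq 0.11.3; the strand setting of the counting is not given in the sources used here. The study calls the replicates independent, and biological replicates from mice of both sexes for its experiments as a whole. As vessels were pooled and the labels tie no library to an animal, p-values measure the spread between these libraries.

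The analysis used edgeR 4.0.16 in R 4.3.3: filterByExpr, TMM scaling, 1 quasi-likelihood fit of all 9 libraries by group, and Benjamini-Hochberg adjustment over 14879 genes. Normalized counts are scaled to a mean effective library of 41184338, where 3 counts, taken as the limit of detection, are 2.63 to 3.26 normalized counts and cover counting error only. The biological coefficient of variation was 6.13%. Confidence intervals are 95%, from the standard error with 6 degrees of freedom. Symbols were found for 52083 of 55416 genes, and lengths came from GENCODE M21. DESeq2 1.42.0 and the other settings described under the processing were alternatives, among them scaling, filters, the prior count, the fold minimum, a replicate block and each library left out. On simulated data for Stem against TGF-β, 200 of 200 changed genes among 14374 were recovered, with 1 false call. The changed genes were not low in counts, and their changes were set well beyond the 2-fold minimum. The simulation therefore checks that the fit runs correctly, and does not bear on calls at low counts or near that minimum.

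The members and lists were chosen with earlier results of these data known. All 10 members and the 5 other ligands are named. Of the pathway lists, the genes called between TGF-β and Both were to be named, and between Stem and TGF-β the 3 largest rises and falls among called genes whose groups did not overlap and whose mean was 100 normalized counts or more. Rhbdl2, Adam17, Errfi1, Etv4 from Stem to TGF-β and the genes under the 2-fold minimum between TGF-β and Both were named after their values were seen. A planned comparison of protein sequences, and promoters of Erbb3, Nrg1, Hbegf and Ereg, were not analysed here. Spry3 was not matched and Cblc did not pass the filter.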

Additional observations from a re-analysis of the deposited data

How the results depend on the processing

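The 6, 1 and 5 of the 10 genes called from Stem to TGF-β, TGF-β to Both and Stem to Both were also called in those numbers by DESeq2, in a fit of only the 6 libraries compared and with a replicate block. Whether replicate numbers pair the samples was not settled. Same-numbered libraries of different groups had correlations of their deviations between -0.06 and 0.177, and differently numbered ones between -0.156 and 0.148. The replicate 2 libraries correlated positively in each pair of groups, from 0.117 to 0.177. With the replicate block, 120 of all genes were called from TGF-β to Both, against 94 without it. With a prior count of 2 the numbers from TGF-β to Both fell to 0, and with no fold minimum they were 4 from TGF-β to Both and 8 from Stem to Both. Without the fold minimum 71 and 16 genes of the pathway lists had an adjusted p below 0.05 from Stem to TGF-β and TGF-β to Both, against 18 and 0 with it, and 11158, 1327 and 10900 of all genes did in the 3 comparisons, against 3739, 94 and 3385 with it. With no filter on low counts 163 of all genes were called from TGF-β to Both, and Areg, with 2 to 5 counts in TGF-β, was called from Stem to TGF-β, the seventh of the 10 genes. Scaling by total counts and not by TMM shifted the median of all genes to -0.12 from Stem to TGF-β and -0.11 from Stem to Both, and Erbb2 (-1.02) and Ccnd1 (-1.03) were then called, while Lrig1 (0.89) and Egr2 (0.89) were not. Lrig1 and Egr2 were also not called with a mean of at least 10 counts (1.00 and 0.99), nor Egr2 with a prior count of 2 (0.99).

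Leaving out each library in turn gave 5 to 7, 0 to 1 and 4 to 5 of the 10 genes called, 16 to 19 and 0 to 1 genes of the pathway lists, and 3826 to 3944, 68 to 126 and 3435 to 3618 of all genes. Nrg1 from Stem to TGF-β changed sign without Stem replicate 3 (0.04) and without TGF-β replicate 2 (0.00) and was lowest without Stem replicate 1 (-0.08), and Phlda1 from TGF-β to Both changed sign without Both replicate 2 (0.04) and was lowest without Both replicate 1 (-0.09). The shares per kilobase then ranged over 88.4 to 88.6, 74.8 to 75.6 and 78.0 to 78.5% for Egfr in Stem, TGF-β and Both, 7.01 to 7.34, 36.9 to 37.4 and 31.4 to 32.1% for Hbegf, and 53.8 to 56.9, 47.3 to 48.1 and 46.6 to 47.7% for Nrg1. With coding length in place of transcript length they were 94.2, 86.1 and 88.2% for Egfr, 5.50, 36.1 and 28.5% for Hbegf, and 28.7, 31.4 and 28.7% for Nrg1. Depth limits Erbb3, Btc, Areg and Egf, each under 50 counts in every library, and Erbb4, which had 0 counts in Stem.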
